A study of Mus musculus with 29 samples.

Results

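The DnaJ family, also called Hsp40, comprises the proteins that carry a J domain, the short helical module through which they stimulate the ATPase of Hsp70 chaperones. Each DnaJ protein binds its own set of clients or sits in its own compartment, hands the client to an Hsp70, and so sets where and on what Hsp70 works; nucleotide exchange factors then release the client. Members of class A and class B in the cytosol and nucleus act in general protein folding, whereas most members of class C are tied to one task, such as uncoating of vesicles, import into mitochondria or splicing. In the nervous system the family is known for restraining protein aggregation, and several members are disease genes of motor neurons or synapses in humans. Genes annotated as protein coding with a symbol of the pattern Dnaja, Dnajb or Dnajc followed by a number were taken, which gave 45 genes. Of these, 41 had at least 10 counts in at least 3 libraries of the 4 h table and are the members described here, out of 54532 genes in the table. Dnajc22 was just inside this limit, with 10 or more counts in 3 libraries and at most 13, and Dnajb8 was just outside it, with at most 6. The other genes outside were Dnajb7, Dnajc5b and Dnajc5g, with at most 6, 4 and 4 counts. Dnajb1, the classical heat-inducible member, was present in every library, from 735 counts upward at 4 h.

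RNA was sequenced from the spinal cord of mice after aortic cross clamping (ACC), a surgical interruption of aortic flow that makes the lower cord ischemic, or after Sham surgery. At 4 h the thoracic and lumbar cord was taken from wild-type mice (WT, C57BL-6J; 3 ACC and 3 Sham), from mice with a global knockout of miR-128 (miR128KO; 3 ACC and 4 Sham in the tests), and from mice with a knock-in of miR-155 in motor neurons (miR155KI; 5 ACC and 4 Sham), the mutants on a C57BL6 background. At 1 h the thoracolumbar cord of 3 WT mice after ACC was compared with the cervical cord of the same mice, which lies above the injured segments. Mice of both sexes were used and their age is not given in the sources used here. No 1 h Sham cord is among these groups, so at 1 h region and ischemia cannot be told apart. The 29 libraries held 15596512 to 33056693 counts each.

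Libraries that stood apart bear on the members. The study discarded miR128KO ACC library 1 on the ground that its cord looked like Sham, a criterion based on the outcome. That library held 40.8 CPM (counts per 1000000 counts of the library) of Dnajb1, inside the Sham range of 34.4 to 40.9 CPM, and it was left out of the tests here except where stated. At 1 h the thoracolumbar library of mouse 3 held 41.7 CPM of Dnajb1, against 172 and 202 CPM in the thoracolumbar libraries of mice 1 and 2. The genotype labels could be checked in part. The host transcript of miR-155, Mir155hg, had 11 to 44 counts in miR155KI libraries and 1 to 6 in the other 4 h genotypes. Transcripts of the miR-128 genes had at most 3 counts in any genotype, so poly-A RNA does not check that knockout. Of the cell type markers listed, the defining genes of neurons, motor neurons, astrocytes, oligodendrocytes and microglia all had a median of at least 10 counts, as a cord sample should.

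Promoter sequences are shown for Dnajb1 and for the members with a match to a motif searched for, except Dnajc27. Dnajb5 is not shown. The motifs were searched because the factor that drives the heat shock response binds repeated GAA units. In the ER stress response 1 of the arms acts through a composite element. RefSeq windows on GRCm38.p6, from 250 bases before to 50 after each start, were available for 34 of the 41 members. The search used GAANNTTC and TTCNNGAA, each its own reverse complement, the 3-unit forms in which these 2 motifs overlap and which so contain both, and the ER stress element, CCAAT and CCACG with 9 bases between them, on both strands. Positions count back from the RefSeq start, and capitals mark the motif found.
Dnajb1: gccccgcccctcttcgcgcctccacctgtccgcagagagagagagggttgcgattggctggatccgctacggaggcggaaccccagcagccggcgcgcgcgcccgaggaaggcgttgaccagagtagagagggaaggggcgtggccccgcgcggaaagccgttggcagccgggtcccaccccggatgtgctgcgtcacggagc
Dnaja1: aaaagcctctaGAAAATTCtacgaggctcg
Dnaja4: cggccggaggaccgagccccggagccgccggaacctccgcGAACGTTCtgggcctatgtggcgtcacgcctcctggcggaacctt
Dnajb4: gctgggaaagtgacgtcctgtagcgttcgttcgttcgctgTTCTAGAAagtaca
Dnajc10: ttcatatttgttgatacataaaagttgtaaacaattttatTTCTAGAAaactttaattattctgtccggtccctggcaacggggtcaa
Dnajb6: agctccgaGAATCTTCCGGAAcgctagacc
Dnajc3: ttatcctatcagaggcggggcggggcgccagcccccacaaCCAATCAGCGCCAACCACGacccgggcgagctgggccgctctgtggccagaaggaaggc

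The Dnajb1 stretch lies at chr8:83607972-83608174 on the plus strand, ends at the base before the start, and holds none of the motifs, so it has no capitals. The Dnaja1 stretch is chr4:40722333-40722362 on the plus strand and the Dnaja4 stretch is chr9:54699429-54699513 on the plus strand. The Dnajb4 stretch is chr3:152193846-152193899 on the minus strand, with the motif 14 to 7 bases before a downstream start of the gene. The Dnajc10 stretch is chr2:80315244-80315331, the Dnajb6 stretch is chr5:29735844-29735873 and the Dnajc3 stretch is chr14:118937787-118937885, all on the plus strand. The motifs of Dnaja1 and Dnajb6 fall in an exon of another annotated transcript (GENCODE M21) and are shown as 30 bases; the other capitalised motifs are outside exons. A further Dnaja4 match, GAACCTTC, lies 52 to 45 bases before the start in an annotated exon, and the stretch shown ends inside it. Either 8-base motif was present in 7 of 47 member windows and in 15.1% of all 32851 windows. The member windows were of 6 genes, namely Dnaja1, Dnaja4, Dnajb4, Dnajb6, Dnajc10 and Dnajc27. An exact 3-unit motif was found in 2 of the 47 windows, both of Dnajb6, and in 0.603% of all windows. The ER stress element was found in 1 of the 47, that of Dnajc3, and in 0.119% of all windows. These are matches of letters in a window and no evidence of binding or of its absence.

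At 4 h after ACC, a small set of members, most of them cytosolic and nuclear, rose and most of the family did not pass the test. Dnajb1 rose 7.21-fold, Dnaja4 1.83-fold, Dnaja1 1.70-fold, Dnajb5 1.65-fold and Dnajb4 1.49-fold. Dnajb2 and Dnajb11 rose by less, 1.16-fold and 1.14-fold. Of the 40 members that passed the filter on low counts, 7 were higher, 6 were lower and 27 were not called, by edgeR's quasi-likelihood test with adjusted p under 0.05 over 17759 genes and 11 mice in each group. Among all genes tested, 9.37% were called higher and 7.04% lower; the counts of members are read against these shares. The members' median log2 fold change was 0.018, against -0.0097 for all genes. The CPM of the ACC and Sham mice did not overlap for 5 members, all higher in ACC, where 1.04% of all genes did so; no member had all ACC mice below all Sham mice, where 0.186% of genes did. These counts leave out miR128KO ACC library 1, which was dropped for looking like Sham. It lies within or below the Sham range for Dnajb1, Dnaja1, Dnajb4 and Dnajb5, so with it these 4 overlap, and Dnaja4, at 35.1 CPM against a Sham maximum of 34.2, does not.

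**Figure D1:**
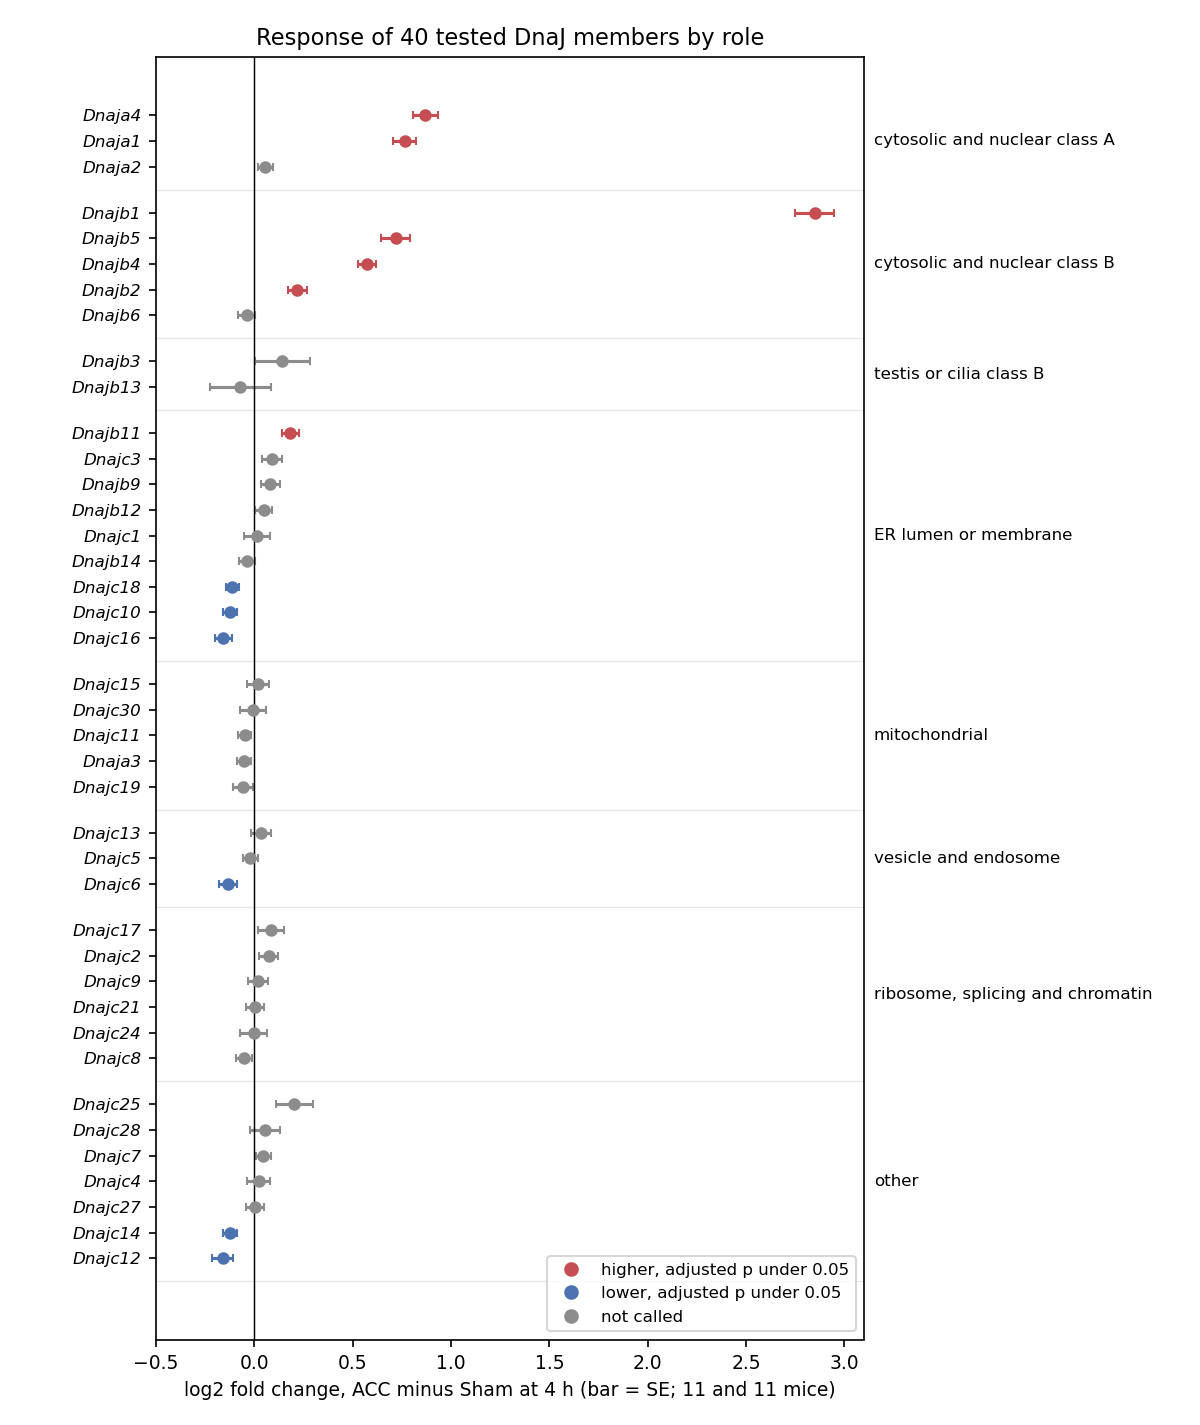
log2 fold change of ACC against Sham at 4 h for the 40 tested members, grouped by role, with the SE as a bar; red points are called higher, blue lower and grey not called. Dnajb1 at 2.85 stands to the right of all other members, whose values run from -0.16 to 0.87.

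The cytosolic and nuclear class B group holds the general-purpose partners of Hsp70 with a glycine and phenylalanine rich linker, and 4 of its 5 members rose. Among all genes, 9.37% were called higher and 7.04% lower. The role groups used here and below were drawn up with earlier results of these data known. Dnajb1 (ENSMUSG00000005483, chr8:83608193-83612653, plus strand, GRCm38/mm10) lay between 198 and 430 CPM in the ACC mice, with a median of 260, and between 34.4 and 40.9 CPM in the Sham mice, with a median of 39.0. Every ACC mouse in the test was above every Sham mouse, and the lowest ACC mouse was WT ACC 1. Its log2 fold change was 2.85 (SE 0.10, edgeR adjusted p = 7.6e-16, n = 11 and 11). Dnajb5 (ENSMUSG00000036052, chr4:42949814-42959425), a class B member of the same subfamily, lay between 53.9 and 98.9 CPM in ACC, median 64.5, and between 36.9 and 46.8 in Sham, median 40.9. The groups did not overlap, and the log2 fold change was 0.72 (SE 0.07, edgeR adjusted p = 3.8e-08). Dnajb4 (ENSMUSG00000028035, chr3:152178511-152210302, minus strand), also of that subfamily, lay between 78.7 and 105 CPM in ACC, median 89.6, and between 55.4 and 65.0 in Sham, median 62.2. These groups did not overlap either, with a log2 fold change of 0.57 (SE 0.04, edgeR adjusted p = 6.5e-11).

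Dnajb2, a neuronal member that binds ubiquitin and routes clients to the proteasome, lay between 175 and 206 CPM in ACC and between 142 and 188 in Sham. The groups overlapped, and the log2 fold change was 0.22 (SE 0.05, edgeR adjusted p = 0.0013). Dnajb6, which suppresses aggregation of polyglutamine proteins, was the class B member that did not pass, with 115 to 147 CPM in ACC, 123 to 144 in Sham and a log2 fold change of -0.04 (SE 0.04). Its promoter window is the one that held an exact 3-unit motif.

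Class A members carry a zinc-binding region and are the closest relatives of bacterial DnaJ. Of the 3 cytosolic ones 2 rose, where 9.37% of all genes were called higher. Dnaja1 (ENSMUSG00000028410, chr4:40722150-40737149, plus strand), an abundant cytosolic co-chaperone, lay between 385 and 602 CPM in ACC, median 488, and between 261 and 302 in Sham, median 285. The groups did not overlap, with a log2 fold change of 0.76 (SE 0.06, edgeR adjusted p = 6.6e-11). Dnaja4 (ENSMUSG00000032285, chr9:54698873-54716315, plus strand) lay between 41.8 and 61.4 CPM in ACC, median 56.8, and between 26.3 and 34.2 in Sham, median 30.1. It did not overlap between the groups either, with a log2 fold change of 0.87 (SE 0.06, edgeR adjusted p = 2.3e-11). Dnaja2, a close relative of Dnaja1, was not called, with a log2 fold change of 0.06 (SE 0.04) and 173 to 201 CPM in ACC against 163 to 198 in Sham. Dnaja1 overlaps Smu1 and Dnaja4 overlaps Wdr61 on the opposite strand. The strand setting of the authors' counting is not given in the sources used here, so the part of these neighbours in the counts was not tested.

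**Figure D2:**
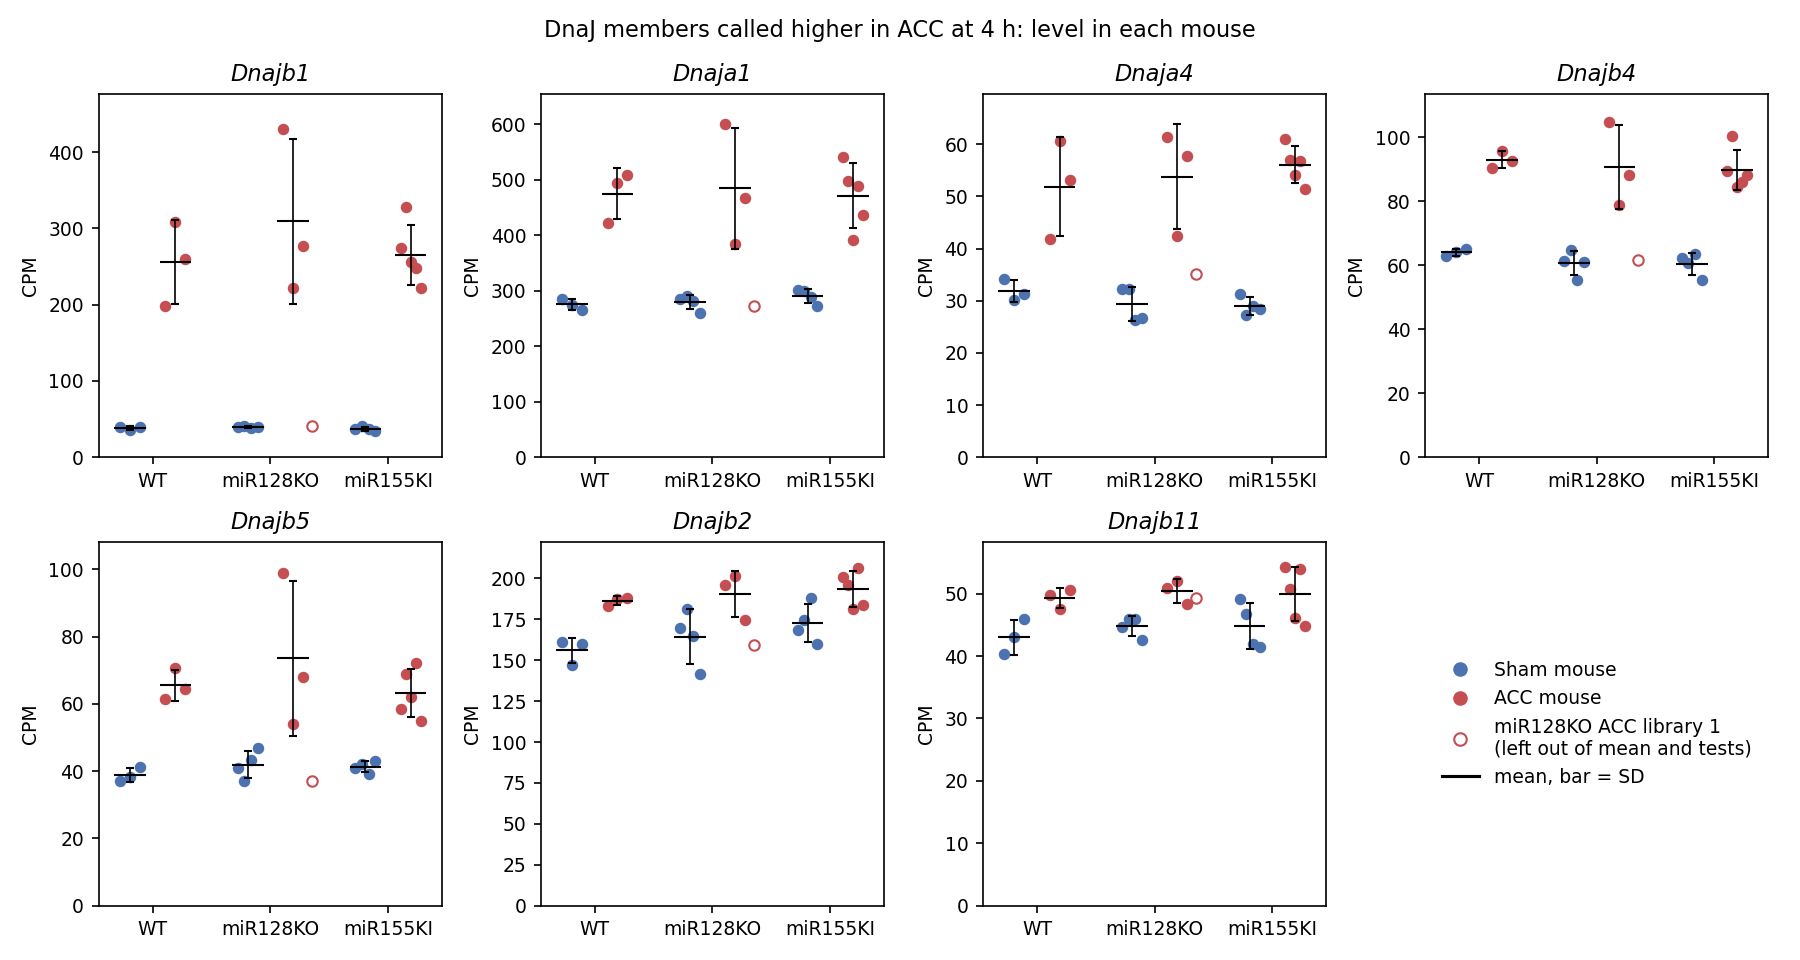
CPM of the 7 members called higher at 4 h, 1 point per mouse, by genotype, with the mean as a line and the SD as a bar; the open circle is miR128KO ACC library 1, which entered no test. For Dnajb1 the ACC mice lie between 198 and 430 CPM and the Sham mice between 34.4 and 40.9, with the open circle at 40.8.

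In the endoplasmic reticulum (ER), where DnaJ proteins work with Hspa5 (BiP), 1 of the 9 members grouped here rose and 3 fell. Over all genes 9.37% were called higher and 7.04% lower, so 1 of 9 is close to the share called higher. Dnajb11 (ERdj3), a soluble co-chaperone of BiP, lay between 44.9 and 54.2 CPM in ACC and between 40.2 and 49.1 in Sham, with a log2 fold change of 0.18 (SE 0.04, edgeR adjusted p = 0.0027). Dnajc16 fell by 0.16 on the log2 scale (SE 0.04, edgeR adjusted p = 0.012), Dnajc10 (ERdj5), a reductase of disulfide bonds, fell by 0.12 (SE 0.04, adjusted p = 0.015), and Dnajc18, an ER membrane protein, fell by 0.11 (SE 0.03, adjusted p = 0.017). For all 3 the ranges of the ACC and Sham mice overlapped, as with 82.8 to 98.8 CPM of Dnajc10 in ACC and 91.9 to 110 in Sham. Dnajc3, which carries the ER stress element in its window, was not called at a log2 fold change of 0.09 (SE 0.05). Dnajb9 (ERdj4), which escorts misfolded proteins to degradation and keeps the sensor Ire1 in check, was not called at 0.08 (SE 0.05). The membrane proteins Dnajb12 and Dnajb14 had values of 0.05 and -0.04, and Dnajc1 0.01.

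None of the 5 mitochondrial members was called. Dnaja3, a partner of mitochondrial Hsp70, had a log2 fold change of -0.05, Dnajc11 -0.05, the import motor component Dnajc19 -0.06, its relative Dnajc15 0.02 and Dnajc30 -0.01. Among the members that act on vesicles and endosomes, Dnajc6 (auxilin), which uncoats clathrin vesicles in neurons, fell by 0.14 on the log2 scale (SE 0.04, edgeR adjusted p = 0.037), from 183 to 234 CPM in Sham to 176 to 225 CPM in ACC. Dnajc5 (cysteine string protein), the synaptic vesicle chaperone, was not called at -0.02 (SE 0.04), nor was the endosomal Dnajc13 at 0.03 (SE 0.05). The ranges overlapped for all 3 of these genes.

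The 6 members tied to ribosomes, splicing and chromatin were not called. Their log2 fold changes were 0.07 for the ribosome-associated Dnajc2, 0.01 for Dnajc21, -0.05 for the splicing factor Dnajc8, 0.08 for Dnajc17, 0.02 for the histone chaperone Dnajc9 and -0.00 for Dnajc24, which takes part in making diphthamide. The members known from testis or cilia were near the bottom of the range of counts and not called. Dnajb13, a component of the axonemal radial spoke, had 1.31 to 2.86 CPM in ACC and 1.40 to 3.24 in Sham, and Dnajb3 had 1.01 to 1.81 and 0.893 to 1.91. Ependymal markers, another sign of ciliated cells, summed to 37.7 to 59.3 CPM in ACC and 34.1 to 64.6 in Sham.

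Of the 8 remaining members, which were not sorted by compartment, 7 were tested and 2 fell, where 7.04% of all genes were called lower. Dnajc12, which assists the aromatic amino acid hydroxylases, fell by 0.16 on the log2 scale (SE 0.05, edgeR adjusted p = 0.042), and Dnajc14 fell by 0.12 (SE 0.04, adjusted p = 0.017). The others were not called, with log2 fold changes of 0.20 for Dnajc25, 0.05 for Dnajc28, 0.05 for the Hsp70 and Hsp90 co-chaperone Dnajc7, 0.02 for Dnajc4 and 0.00 for Dnajc27. Dnajc22, left out by the filter, had 0 to 0.621 CPM in ACC and 0.0872 to 0.349 in Sham. The calls of Dnajc12 and Dnajc6 were lost in 20 and 13 of 28 alternative settings, including 16 and 12 of the 22 fits that leave out 1 mouse. Without the low-count filter Dnajc14 and Dnajc18 lost their calls too, and Dnajc14 also did with miR128KO ACC library 1 included. Microglial markers, which were lower in ACC, summed to 231 to 312 CPM there against 291 to 347 in Sham, with all 6 genes measured; their part in the small falls was not tested. In bulk tissue, fewer cells of a type and less RNA per cell cannot be told apart.

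Levels of different members were compared per length, as CPM per kb of exon. For 39 of the 41 members this length is that of all annotated exons of the gene together. The transcripts present in cord can be shorter, so the order depends on this choice of length. In Sham cord Dnaja2 was first, at 60.6 ± 3.71 (SD, n = 11), followed by Dnajc5 at 51.7 ± 2.19, and neither range overlapped that of the next member. Dnajb2, Dnajc27, Dnajc8 and Dnajc6 came next, between 37.3 and 38.9, and their ranges overlapped from one to the next. Dnaja1 was the seventh at 32.7 ± 1.496. Dnajb1 was at rank 19 of 41 in Sham, at 11.97 ± 0.654, with a range that overlapped that of the next member, Dnajb12. In ACC Dnajb1 was at rank 1, at 85.7 ± 19.96, followed by Dnaja2 at 62.5 ± 3.09 and Dnaja1 at 55.2 ± 7.52. The ranges of the first and second overlapped there, at 61.9 to 134 for Dnajb1 and 58.2 to 67.6 for Dnaja2. The members together held 3156 ± 67.0 CPM in Sham and 3637 ± 167 in ACC (SD, n = 11 each). Dnajb1 made up 1.22% ± 0.0769 of the counts of the family in Sham and 7.50% ± 1.41 in ACC. Without Dnajb1 the family held 3118 ± 67.6 CPM in Sham and 3362 ± 117 in ACC. That sum includes Dnaja1, with a median of 285 CPM in Sham and 488 in ACC, and 27 of the 40 members tested were not called.

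**Figure D3:**
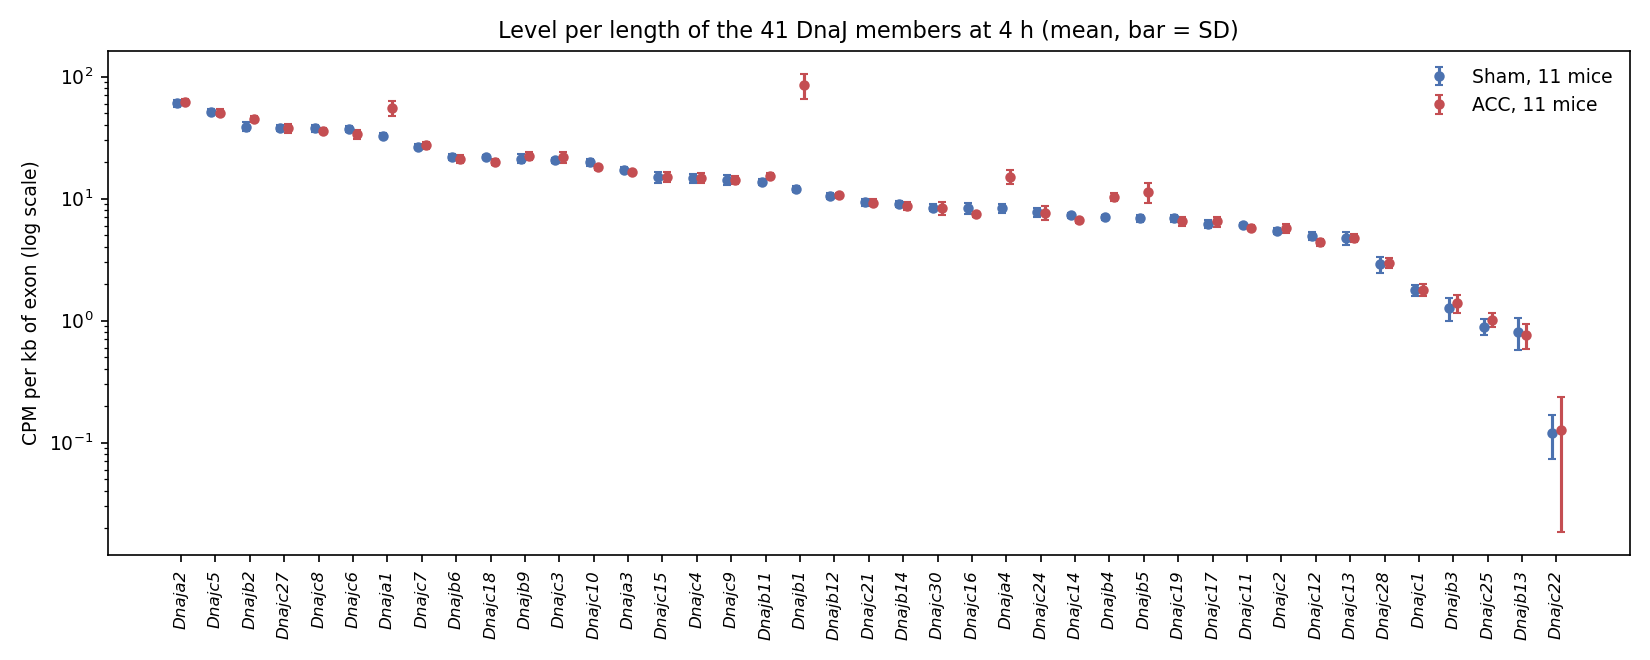
CPM per kb of exon on a log axis for the 41 members in Sham (blue) and ACC (red) at 4 h, mean and SD over 11 mice each, ordered by the Sham level. Dnajb1 moves from 11.97 to 85.7, from rank 19 to rank 1 by the mean.

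The same 5 members rose in each of the 3 genotypes. In WT mice Dnajb1 was 198, 308 and 260 CPM after ACC and 39.9, 35.5 and 39.8 after Sham. In miR128KO mice it was 430, 221 and 277 after ACC and 39.0, 40.9, 38.2 and 39.0 after Sham. In miR155KI mice it was 274, 328, 255, 248 and 221 after ACC and 37.2, 40.9, 37.4 and 34.4 after Sham. Without miR128KO ACC library 1, which at 40.8 CPM lies inside the miR128KO Sham range, the groups did not overlap in any genotype. The ACC mouse at 430 CPM was also at the top for Dnaja1, Dnaja4, Dnajb4 and Dnajb5. Within each genotype the same 5 members were called higher and 0 lower, namely Dnajb1, Dnaja1, Dnaja4, Dnajb4 and Dnajb5. Among all 19581 genes in this fit, 1.44% were called higher in WT, 2.07% in miR128KO and 3.29% in miR155KI, and 0.291%, 0.659% and 1.32% lower. The log2 fold change of Dnajb1 was 2.74 (SE 0.20) in WT, 3.00 (SE 0.18) in miR128KO and 2.84 (SE 0.17) in miR155KI, with edgeR adjusted p of 2.5e-07, 1.0e-08 and 7.8e-09.

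The other 4 ranged from 0.55 for Dnajb4 in WT to 0.97 for Dnaja4 in miR155KI. With miR128KO ACC library 1 included, 3 members instead of 5 were called in miR128KO, since Dnaja1 and Dnajb5 lost their calls. Dnajb5 also lost its call there in WT (edgeR adjusted p = 0.11) and in miR155KI (edgeR adjusted p = 0.050); the cause was not tested. A difference of the ACC effect among genotypes was called for 0 of 41 members by edgeR's test with 2 degrees of freedom, as for 0.0% of all genes. No member had an unadjusted p under 0.05 in that test, against 618 of all genes, and DESeq2 called 0 as well. The ACC effect on Dnajb1 was larger by 0.25 (SE 0.26) on the log2 scale in miR128KO than in WT and by 0.09 (SE 0.24) in miR155KI than in WT, both smaller than their SE. Among Sham mice 0 members differed by genotype in edgeR, where 0.0868% of genes did, and DESeq2 called 0. Dnajc15 was the 1 member with an unadjusted p under 0.05 there (edgeR adjusted p = 0.54), against 1345 of 19581 genes.

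Among the 11 ACC mice, those with more Dnajb1 also had more Dnaja1, Dnaja4, Dnajb4 and Dnajb5; Dnajb2 and Dnajb11 were not examined in this way. On log2(CPM + 0.5), Dnajb1 had a Pearson r of 0.779 with Dnaja1 (permutation p = 0.0044), 0.770 with Dnaja4 (permutation p = 0.0056), 0.788 with Dnajb4 (permutation p = 0.0045) and 0.840 with Dnajb5 (permutation p = 0.0027). Over the 5 relations computed, the fifth being with Hspa1b, the adjusted permutation p was 0.0070 for each of these 4. Spearman's rho was 0.755, 0.882, 0.718 and 0.691, with adjusted permutation p of 0.025, 0.0028, 0.026 and 0.028. Without the 2 mice farthest from the median of Dnajb1, miR128KO ACC 3 and WT ACC 1, r was 0.608, 0.727, 0.842 and 0.701 over 9 mice. With Hspa1b r was 0.499 (permutation p = 0.11; rho 0.545, permutation p = 0.087) and 0.437 over 9 mice. The genotypes hold 3 to 5 ACC mice each, too few for a value within each. The values of a mouse share 1 library, and the 4 members were chosen for rising in the same mice against Sham.

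**Figure D4:**
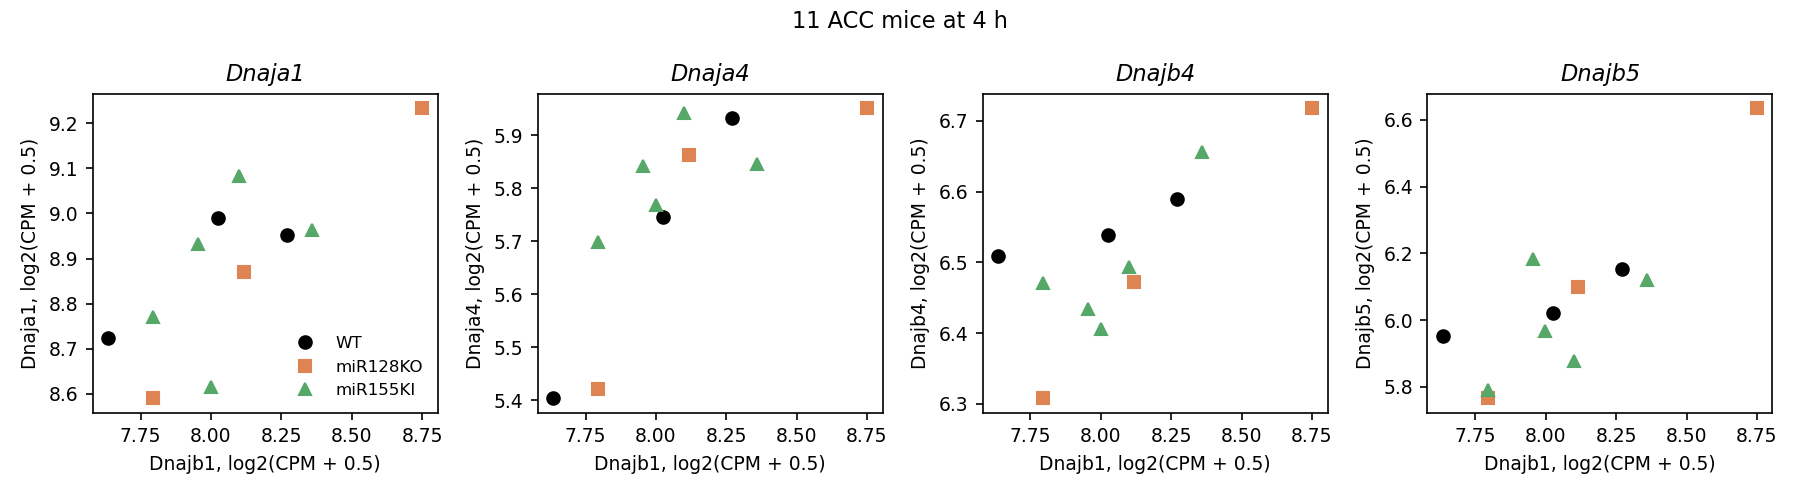
Each point is 1 of the 11 ACC mice at 4 h, with Dnajb1 on the x axis and 1 other member on the y axis, both as log2(CPM + 0.5), and the marker giving the genotype. The upper right point in each panel is miR128KO ACC 3, which had the highest level of all 5 members.

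Chemokine levels were used in the study to form a high and a low group of 3 ACC mice each. These mice came from WT, miR128KO and miR155KI together, and the genotypes were not balanced between the groups. Chemokine level and genotype are therefore not separated in this contrast. In the authors' deposited table for that contrast, 0 of 41 members had an adjusted p under 0.05 in DESeq2 and 0 an unadjusted p under 0.05. The share over all genes of that contrast is not given here, so these counts of members cannot be read against it. The authors' deposited table gives Dnajb1 a log2 difference of -0.09 (SE 0.27), high minus low, and the members ran from -0.22 to 0.45. For ACC against Sham at 4 h, the authors' deposited table gives 7 members higher and 6 lower by adjusted p. In the DESeq2 fit made here of the same mice, 2025 of 24047 genes were called higher and 1372 lower.

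At 1 h after ACC, 2 of the 3 mice had more Dnajb1 in the thoracolumbar than in the cervical cord and the third did not. In thoracolumbar cord Dnajb1 was 172, 202 and 41.7 CPM in mice 1, 2 and 3, and in cervical cord of the same mice 49.1, 44.7 and 41.9 CPM. The log2 difference was 1.58 (SE 0.66, edgeR adjusted p = 0.66), which did not pass the test. By edgeR 0 of 40 members tested were called at 1 h, where 0.208% of 17810 genes were called higher and 0.23% lower. An unadjusted p under 0.05 was found for 2 members (Dnajb4 and Dnajc15), against 1470 of the 17810 genes. DESeq2 and the authors' deposited table call 0 members as well, with 3 at an unadjusted p under 0.05 in the authors' deposited table. In the DESeq2 fit made here 1205 genes had an unadjusted p under 0.05. Without the thoracolumbar library of mouse 3, Dnajb1 was called, with a log2 difference of 2.02 (SE 0.09, edgeR adjusted p = 1.3e-09). It was the 1 member called, where 142 of 18433 genes were. That library is singled out by its low Dnajb1, so this fit cannot serve as a test of Dnajb1. With another library left out instead, Dnajb1 was not called (edgeR adjusted p 0.76 to 0.95).

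Dnaja1 was 380, 375 and 264 CPM in thoracolumbar and 295, 313 and 325 CPM in cervical cord of mice 1, 2 and 3. Dnaja4 was 46.8, 46.5 and 24.9 CPM in thoracolumbar and 30.01, 37.5 and 35.5 CPM in cervical cord. Both were higher below than above in mice 1 and 2 and lower in mouse 3. Dnajb4 was 79.2, 81.7 and 61.1 CPM against 65.3, 61.3 and 60.9, and Dnajb5 was 41.6, 45.1 and 36.6 CPM against 39.9, 39.9 and 33.6. Over the 40 members, the log2 difference within a mouse had a median of 0.05 in mouse 1, 0.04 in mouse 2 and -0.01 in mouse 3. The regions did not overlap for Dnaja2, higher in thoracolumbar cord, where 10.1% of genes did so, and for Dnajb3 and Dnajc15, lower there, where 4.78% did. Of the marker lists, motor neuron genes summed to 187 to 203 CPM in thoracolumbar and 304 to 329 CPM in cervical cord, and their part in these differences was not tested.

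**Figure D5:**
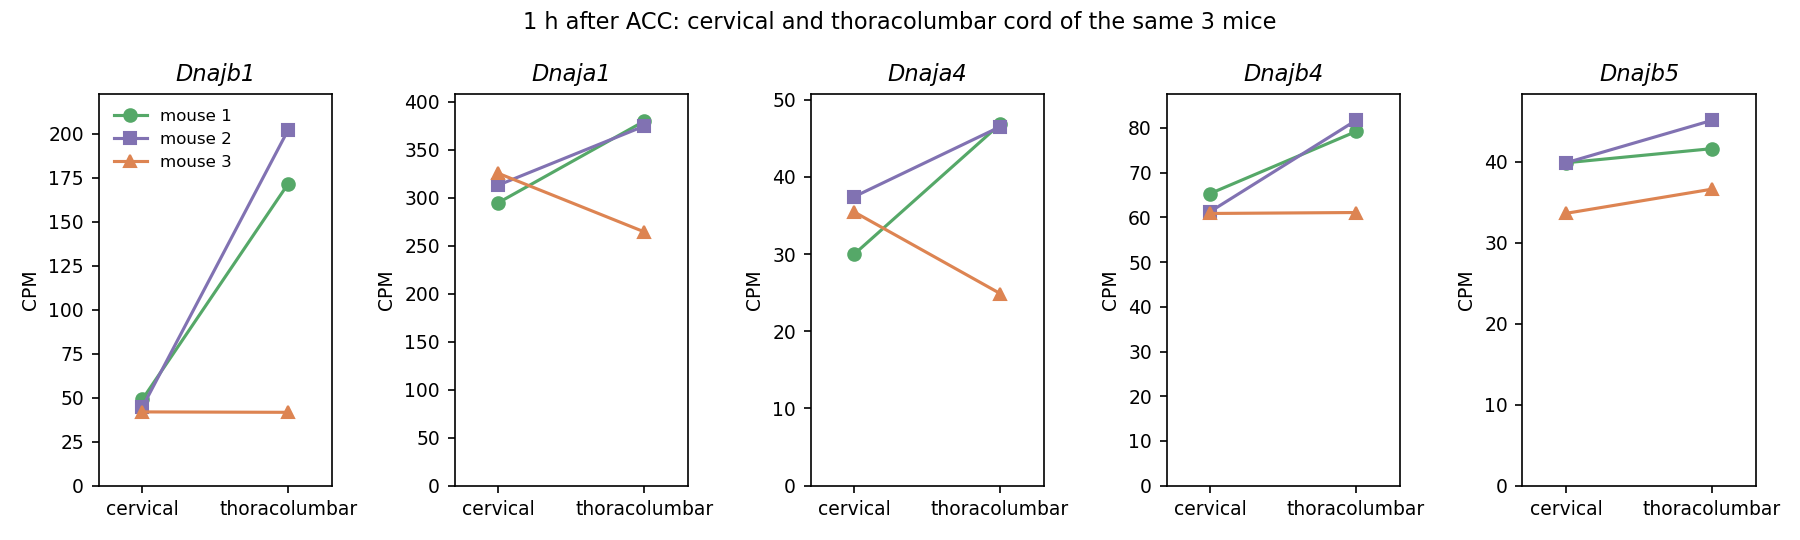
CPM of the 5 members with the larger 4 h changes in cervical and thoracolumbar cord 1 h after ACC; a line joins the regions of 1 mouse. Dnajb1 is at 172 and 202 CPM in thoracolumbar cord of mice 1 and 2 and at 41.7 CPM in mouse 3.

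The partners of the family were read from lists chosen with earlier results of these data known. Among Hsp70 genes, 6 of 11 rose at 4 h and 0 fell, with a median log2 fold change of 0.15 against -0.0097 for all genes. Of all genes tested, 9.37% were called higher and 7.04% lower. Hspa1b, an inducible Hsp70, went from 1.60 to 4.42 CPM in Sham to 375 to 768 CPM in ACC (log2 fold change 7.67, SE 0.16, edgeR adjusted p = 6.2e-19), and Hspa1a from 2.97 to 5.46 to 219 to 477 CPM (6.42, SE 0.15). These 2 genes are near-identical copies, so how counts divide between them is uncertain. The constitutive Hspa8 rose by a log2 fold change of 0.44 (SE 0.05), and the ER member Hspa5 by 0.59 (SE 0.06). Of the exchange factors 6 of 14 rose and 1 fell, with a median of 0.14. Hsph1 (Hsp110) rose by 1.75 (SE 0.07), Bag3, which routes Hsp70 clients to autophagy, by 1.19 (SE 0.06) and Hspa4 by 0.23 (SE 0.04), and Bag4 fell by 0.20 (SE 0.04).

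Of the genes for Hsp90 and its co-chaperones 12 of 17 rose and 0 fell, with a median of 0.21, where 9.37% of all genes were called higher and 7.04% lower. Hsp90aa1 rose by 0.50 (SE 0.05), Hsp90ab1 by 0.41 (SE 0.04), Unc45a by 0.37 (SE 0.04) and Fkbp4 by 0.36 (SE 0.05). Of 7 regulators 3 rose and 0 fell, all from the ER and integrated stress responses, with Ddit3 at 0.80 (SE 0.07), Xbp1 at 0.56 (SE 0.05) and Atf4 at 0.43 (SE 0.05). Atf6, also of the ER stress response, was not called at 0.04 (SE 0.05, edgeR adjusted p = 0.64). The symbol Ddit3 stands for 2 gene identifiers, of which only the first was read. Hsf1, the factor of the heat shock response, had a log2 fold change of 0.12 (SE 0.05) and was not called (edgeR adjusted p = 0.066). J domain proteins that carry other names had 0 of 4 tested called, with Gak at 0.01 (SE 0.04). At 1 h Hspa1b was 386, 353 and 3.39 CPM in thoracolumbar cord of mice 1, 2 and 3. In their cervical cord it was 14.8, 6.04 and 3.84 CPM, with mouse 3 again without the higher level. Its log2 difference at 1 h was 4.96 (SE 1.85, edgeR adjusted p = 0.61), which did not pass the test. No gene of the partner lists was called at 1 h, where 0.208% of all genes were called higher and 0.23% lower. In miR128KO ACC library 1 Hspa1b was 2.78 CPM, inside the Sham range.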

How the data were processed

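Spinal cord RNA was measured by sequencing in 29 libraries of 8 groups. The submitters' processing notes name fastp, HISAT2 2.0.5, featureCounts 1.5.0-p3 and the builds GRCm38 and mm10; the annotation release and strand setting are not given in the sources used here. The authors deposited whole-number gene counts, which were used for every test here. The normalized values deposited by the authors, a signal per gene, equal the count over a size factor of the library, with 0 values off by more than 0.01 counts. The log2 fold changes, the score (Wald statistic) and the p-values of the authors' deposited tables come from DESeq2, per the file headers and the submitters' processing notes. These were turned so that ACC, thoracolumbar cord or high chemokine level comes first.

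All genes of a table were fitted in edgeR 4.0.16 under R 4.3.3 (TMM, filterByExpr with minimum count 10, robust quasi-likelihood F tests), with Benjamini-Hochberg adjustment and calls at adjusted p under 0.05. The SE is the absolute log2 fold change divided by the square root of F. The scripts were tested on simulated data. CPM is the count per 1000000 counts of its library, and CPM per kb divides it by the deposited exon length. The 4 h fit used 11 ACC and 11 Sham mice. A fit of 6 genotype and treatment groups gave the effects within genotypes, their difference and the Sham differences. At 1 h a number stands for a mouse that gave both regions, per the labels; deviations within a mouse correlated at 0.0084, 0.0066 and 0.028. No number 2 is among the miR128KO ACC libraries of these data, and number 1 entered no test unless stated, following the study.

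The members, role groups, partner lists, marker lists and motifs were chosen with earlier results of these data known. Genes were named by this rule: all members with an adjusted p under 0.05 and an absolute log2 fold change of at least 0.5 are given in detail, the other members with their log2 fold change, and from each partner list up to 4 genes with the smallest adjusted p under 0.05, or where none passed the 2 of highest mean CPM. A gene that this rule names is not reported here. Hsf1, Atf6 and the 1 h results of Hspa1b and the partner lists were added after their values were seen, as was the search for motifs with 1 mismatch. The alternatives tried were RLE size factors, DESeq2 1.42.0, no low-count filter, a replicate block, genotype as a covariate, Sham libraries alone, library 1 included, and leaving out each library. Correlations used 100000 permutations, two-sided. The within-group library pairs, 40 in all, had a mean chi-square per gene of 7.82 to 36.5, so none was a repeat of another.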

Additional observations from a re-analysis of the deposited data

Results flagged for a closer look

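Dnajc3 had 97.5 CPM in miR155KI Sham library 2, against 107 to 108 CPM in the other 3 libraries of that group, a gap large for the group's range. Dnajc5 had 331 CPM in the same library, against 374 to 376 in the other 3. Of 72 groups of values examined 2 stood out in this way, and chance gives about 1 in 20. Dnaja4 had 35.1 CPM in miR128KO ACC library 1, which entered no test, against 26.3 to 34.2 CPM in the Sham mice; Dnajb1, Dnaja1, Dnajb4 and Dnajb5 were within or below their Sham ranges there.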

How the results depend on the processing

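The 7 members called higher at 4 h kept direction and call in all 28 alternatives, with Dnajb1 between 2.74 and 2.89 on the log2 scale. The number called lower was 6. It was 3 without the low-count filter and 1 with the replicate block (Dnajc16), and 4 to 6 when 1 mouse was left out. With miR128KO ACC library 1 included, Dnajc12 and Dnajc14 lost their calls. The cause was not tested. Within miR128KO, 3 instead of 5 members were higher with library 1 included, and 5 to 6 when 1 mouse was left out; with the replicate block it was 4, Dnajb5 being at 0.74 with an edgeR adjusted p of 0.054. At 1 h 0 to 1 members were higher when 1 library was left out, the 1 being Dnajb1 without thoracolumbar library 3, the library low in Dnajb1. At 4 h ACC and Sham are separate mice by their labels, so the block there joins mice that share only a number. Deviations of same-numbered 4 h mice had correlations of -0.23 to 0.14. Such values cannot tell paired from unpaired libraries, as those within a mouse at 1 h were 0.0084, 0.0066 and 0.028. The block by mouse at 1 h changed no call. No replicate block could be fitted among Sham mice. No value reversed. Up to 1 mismatch, 3 units were found in 7 of 47 member windows, of 6 genes and not Dnajb1, and in 7.22% of windows.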
